A study of Mus musculus with 12 samples.

Results

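The 10 genes Adh1, Adh4, Adh5, Adh7, Aldh1a1, Aldh1b1, Aldh2, Aldh3a2, Cat and Cyp2e1 encode enzymes that oxidise ethanol to acetaldehyde or acetaldehyde to acetate. They were chosen by name, among 22180 genes that had a probe set annotated to exactly 1 gene, and each was read from its brightest probe set. All 10 were among the 14031 genes bright enough to be tested, and all 10 lay above the brightness line on every one of the 12 arrays.

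Liver RNA was hybridised to arrays of the Affymetrix Mouse Gene 2.0 ST design, whose probes are spread along each transcript, with 3 arrays in each of 4 groups. The null ethanol group held Pparβ/δ-null mice on a liquid diet with 4% (v/v) ethanol, and the null control group held Pparβ/δ-null mice on the liquid control diet. The wild-type ethanol and wild-type control groups held wild-type mice on the same diets. All mice were male, of C57BL/6 background, with a stated age of 8 to 10 weeks, per the labels. They were on their diet for 16 weeks after a run-in on control diet. The diet lasted longer than the stated age, so that age cannot be the age at tissue collection. The labels do not describe the null allele, and Ppard, the gene of PPARβ/δ, differed by only 0.08 ± 0.08 on the log2 scale between null and wild-type livers (SE, averaged over diets), so this probe set gives no check of the genotype; a probe set outside the deleted part would not show the deletion. The feeding study had 10 mice per group. Since no label states that every array stands for its own mouse, the errors and p-values rest only on the spread among these samples, which may be technical. The sample on each array is called a liver here, which does not mean that each came from a different mouse. The standard errors of changes come from limma, which blends the spread of each gene with that of all tested genes.

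In hepatocytes ethanol is oxidised to acetaldehyde mainly by cytosolic alcohol dehydrogenases, with further routes through the microsomal cytochrome P450 CYP2E1 and through peroxisomal catalase, which uses hydrogen peroxide. Aldehyde dehydrogenases, above all mitochondrial ALDH2, then oxidise acetaldehyde to acetate, and both dehydrogenase steps reduce NAD+ to NADH. CYP2E1 is known for its inducibility by ethanol, in large part through a longer life of the protein, and PPARβ/δ is a lipid-sensing nuclear receptor that binds DNA with RXR at paired AGGTCA-like motifs. RNA levels were measured here, and protein and enzyme activity were not analysed.

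Across the 12 arrays 1 of the 10 enzyme genes passed the test. Adh4 was highest in all 3 wild-type control livers, and the other 9 livers, null or ethanol-fed, lay together below them. Aldh1b1 was lower on ethanol in both genotypes by about the same amount, without passing the test. Cyp2e1, Cat, Aldh2 and Adh1 were near the top of the array's range and nearly constant.

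The promoters of 3 enzyme genes are shown because of what a motif search found in them. Promoter sequences from RefSeq (GRCm38.p6), taken as the 250 bases before each transcript start, were matched for 9 of the 10 genes in 11 windows, with none for Aldh2. The sequences run 5′ to 3′ on the strand of the gene, and capitals mark exact matches to AGGTCA, the single motif of a nuclear receptor site, or to the TATA box TATAAA, searched on both strands.
Adh4, chr3:138415247-138415496, plus strand: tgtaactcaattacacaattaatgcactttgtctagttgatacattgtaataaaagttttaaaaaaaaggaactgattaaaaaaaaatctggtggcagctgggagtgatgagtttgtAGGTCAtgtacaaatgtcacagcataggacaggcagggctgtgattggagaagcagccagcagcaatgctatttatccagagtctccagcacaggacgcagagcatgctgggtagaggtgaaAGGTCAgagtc
Cat, chr2:103485154-103485403, minus strand: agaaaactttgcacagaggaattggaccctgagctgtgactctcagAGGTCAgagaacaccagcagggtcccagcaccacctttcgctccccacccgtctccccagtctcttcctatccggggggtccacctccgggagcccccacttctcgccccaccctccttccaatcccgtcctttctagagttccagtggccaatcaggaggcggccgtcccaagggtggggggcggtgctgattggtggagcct
Cyp2e1, chr7:140763569-140763818, plus strand: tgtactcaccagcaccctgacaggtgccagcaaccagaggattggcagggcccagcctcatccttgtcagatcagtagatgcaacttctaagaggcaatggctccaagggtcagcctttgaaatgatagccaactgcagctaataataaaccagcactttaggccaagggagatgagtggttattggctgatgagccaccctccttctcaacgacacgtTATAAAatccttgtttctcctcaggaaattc
The Adh4 window held AGGTCA at 2 places, beginning 133 and 11 bases before the start of the transcript used. The annotated Adh4 gene begins at position 138415456, inside this window, so the second place lies within the annotated gene. The Cat window held AGGTCA once, 204 bases before the start. Of 32851 promoter windows of the same length, 14.02% held at least 1 AGGTCA, and the windows of the other 7 matched enzyme genes held none. The paired form with 1 base between AGGTCA motifs (DR1) was in 0 of the 9 genes and in 0.03% of all windows, and an HNF1-type motif of GTTAAT, 1 base and ATTAAC was in 0 of the 9 genes and in 0.01% of all windows. TATAAA was found 31 bases before the start of Cyp2e1 and farther away in Adh5 and Adh7, against 12.37% of all windows. The E-box CACGTG, which reads the same on both strands, was found in Aldh3a2 and in 6.02% of all windows. Each start is that of a single transcript, and the Adh7 and Aldh3a2 windows lie wholly inside their annotated genes. Adh5 and Aldh1a1 each had a further window, which also lies wholly inside the annotated gene. These matches describe the letters of the windows, and binding was not measured.

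Adh4 encodes the class II alcohol dehydrogenase of liver, which oxidises retinol and whose human counterpart takes part in ethanol oxidation at high ethanol concentrations. Its log2 intensity was 11.49, 11.64 and 11.65 in the null ethanol livers and 11.67, 11.62 and 11.56 in the null control livers. It was 11.45, 11.61 and 11.52 in the wild-type ethanol livers and 12.34, 11.90 and 12.20 in the wild-type control livers. The 3 wild-type control livers therefore lay above all 9 others, with no overlap, which held for 322 of the 14031 tested genes (2.29%). The group means were 11.59 ± 0.09 in null ethanol, 11.62 ± 0.05 in null control, 11.53 ± 0.08 in wild-type ethanol and 12.14 ± 0.23 in wild-type control livers (SD, n = 3 each), and the livers of the first 3 of these groups overlapped.

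In livers on the control diet, Adh4 fell by 0.53 on the log2 scale (SE 0.11; 95% confidence interval -0.77 to -0.29) in null relative to wild-type mice, which is 1.44-fold lower (limma adjusted p = 0.018, over all tested genes). It was the only 1 of the 10 enzyme genes to pass in this comparison, where 5.1% of all tested genes passed and 1.89% passed with a lower value in null livers. The split of all called genes, 450 higher (3.21%) and 265 lower in null livers, was 355 and 349 after quantile normalisation, under which Adh4 still passed. On the ethanol diet it differed between null and wild-type livers by 0.07 ± 0.11 (interval -0.17 to 0.31). Between the diets it differed by -0.02 ± 0.11 in null mice (interval -0.26 to 0.22). In wild-type mice Adh4 was 1.54-fold lower on ethanol than on control diet (-0.62 ± 0.11 on the log2 scale, interval -0.86 to -0.38), with a limma adjusted p of 0.0529, just outside the threshold of 0.05. The ethanol difference in null mice minus that in wild-type mice was 0.60 ± 0.16 (interval 0.26 to 0.93), which did not pass (limma adjusted p = 0.183, where 0.0143% of all genes passed). These comparisons share the wild-type control livers, so they are not independent of each other.

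Whether Adh4 passed depended on single livers. Without null control 2, null control 3, wild-type control 1 or wild-type control 3 the adjusted p of null against wild-type on control diet was 0.0715, 0.0526, 0.0673 and 0.0626 in the limma fits, and with only the 6 livers compared it was 0.0825. Its value stayed between -0.65 and -0.43 in the 12 fits that each left out 1 array. Wild-type control 2 had the lowest Adh4 value of its group, and without it the ethanol difference in wild-type mice was -0.74 with an adjusted p of 0.0028 and the interaction was 0.72 with an adjusted p of 0.0337. The ethanol difference in wild-type mice also passed with array weights, with trend and robust moderation, with a stricter brightness line and with probe sets as the unit (limma adjusted p = 0.00424, 0.0292, 0.0455 and 0.0401). Averaged over both genotypes the ethanol difference was -0.32 ± 0.08 (limma adjusted p = 0.199), and averaged over both diets the genotype difference was -0.23 ± 0.08 (limma adjusted p = 0.0987); without wild-type control 2 their adjusted p-values were 0.0199 and 0.0147, and with array weights 0.0269 and 0.0153. The log2 of the summed intensity of 9 hepatocyte markers ranged from 16.43 to 16.52 in null ethanol, 16.47 to 16.54 in null control, 16.51 to 16.53 in wild-type ethanol and 16.38 to 16.51 in wild-type control livers. Their changes were positive in 9 of 9 for ethanol in wild-type mice (median 0.06). They were positive in 7 of 9 for null against wild-type on control diet (median 0.04), and negative in 9 of 9 in the interaction (median -0.11). In limma 0 of 9 passed in any of these. The part of the hepatocyte markers in the Adh4 differences was not tested. In whole liver RNA, fewer cells of a type and less RNA per cell cannot be told apart.

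The 12 arrays had median log2 intensities of 5.55 to 5.62, and the first principal component, with 32.3% of the variance, separated the genotypes. Macrophage and Kupffer cell markers moved with genotype: 14 of 14 had negative changes in null livers on each diet and averaged over diets. In limma 13 of 14 passed as lower averaged over diets, against 3.98% of all tested genes. On the ethanol diet alone 1 of 14 passed as lower (1.33% of all tested genes), with a median change of -0.45. On the control diet alone 6 of 14 did (1.89% of all tested genes), with a median of -0.6. The log2 of the markers' summed intensity was 12.33 to 12.85 in null ethanol and 12.96 to 13.30 in wild-type ethanol livers. It was 11.96 to 12.41 in null control and 12.63 to 13.16 in wild-type control livers. On ethanol their median change was 0.37 in null mice and 0.23 in wild-type mice. Of 11 sinusoidal endothelial markers, 10 had a negative change in null livers averaged over diets (median -0.30), and Pecam1 and Tek passed as lower. The summed levels were 12.46 to 13.26 in null ethanol, 12.68 to 12.98 in null control, 12.93 to 13.15 in wild-type ethanol and 12.92 to 13.14 in wild-type control livers. The 11 stellate cell and fibroblast markers had summed levels of 12.75 to 12.91 in null ethanol, 12.88 to 13.06 in null control, 12.84 to 12.88 in wild-type ethanol and 12.60 to 12.84 in wild-type control livers. Their changes were positive in 11 of 11 for null against wild-type on control diet (median 0.24) and in 11 of 11 for ethanol in wild-type mice (median 0.08), the comparisons in which Adh4 had -0.53 and -0.62. In limma 0 of 11 passed in either, with 4 and 0 at an unadjusted p under 0.05. Of the 14031 tested genes 3097 and 2035 had such an unadjusted p in these comparisons. Without wild-type control 2 Ecm1 passed as higher in null livers on control diet. The part of these lists in the differences of Adh4 and of the other genes named here was not tested. The 9 tested hepatocyte markers had median changes of 0.01 for genotype and 0.01 for ethanol, each averaged over the other factor. Of 6 adipocyte markers 5 were on the array and 3 were tested, Adipoq and Lep being below the brightness line on all arrays, and Fabp4 fell in null livers averaged over diets. In that comparison 2 of the 3 tested had a negative and 1 a positive change (median -0.07), and 1 passed as lower in limma. The summed levels of the adipocyte markers on the array were 8.33 to 8.51 in null ethanol, 8.27 to 8.46 in null control, 8.41 to 8.75 in wild-type ethanol and 8.56 to 8.74 in wild-type control livers.

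**Figure D1:**
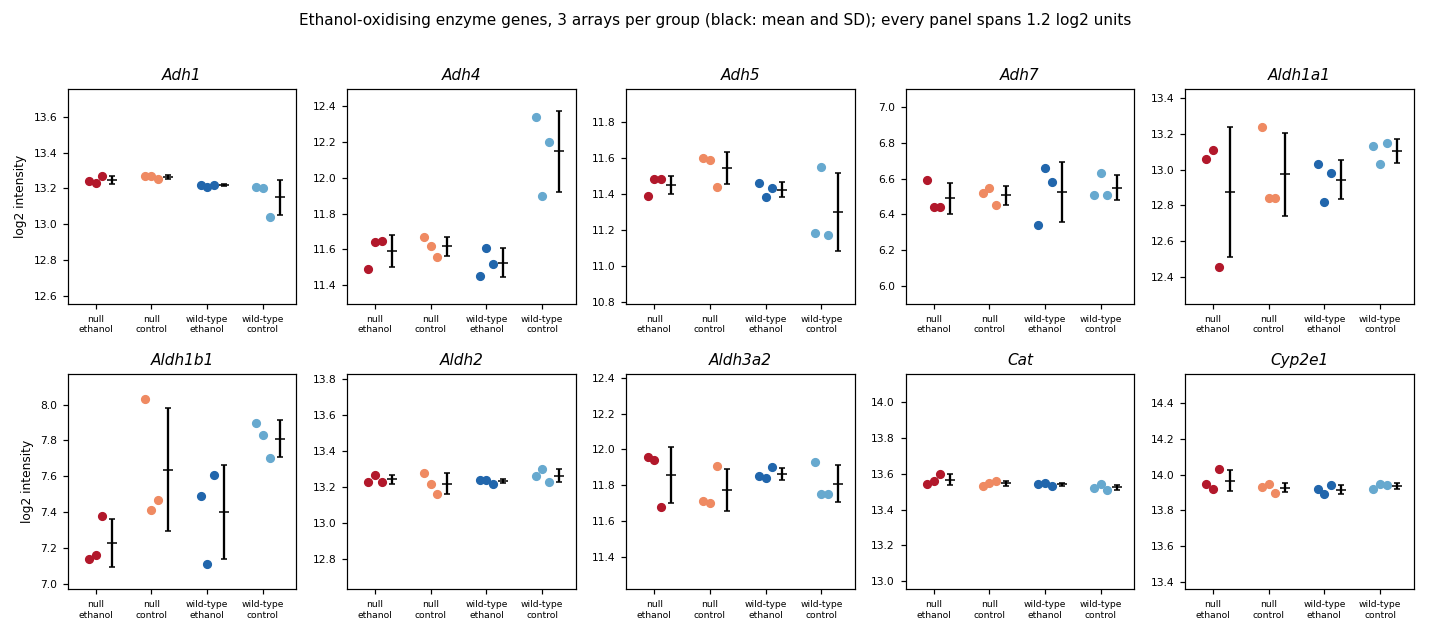
Log2 intensity of the 10 enzyme genes on each of the 12 arrays (points; 3 per group) with the group mean and SD in black; every panel spans the same 1.2 log2 units, so that distances can be compared between genes. Adh4 stands higher in the wild-type control livers (11.90 to 12.34) than in the other groups (11.45 to 11.67), and Cat and Cyp2e1 are almost flat.

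The other alcohol dehydrogenases differed less. Adh1, the class I enzyme that carries most ethanol oxidation in liver, had log2 intensities of 13.24, 13.23 and 13.27 in null ethanol, 13.27, 13.27 and 13.25 in null control, 13.22, 13.21 and 13.22 in wild-type ethanol and 13.21, 13.20 and 13.04 in wild-type control livers. All 6 null livers lay above all 6 wild-type livers, which held in either direction for 3.58% of tested genes, but the difference was small at 0.07 ± 0.05 (interval -0.05 to 0.19, limma adjusted p = 0.501). Adh5, the class III enzyme, which mainly oxidises formaldehyde bound to glutathione, had 11.39, 11.48 and 11.48 in null ethanol, 11.60, 11.59 and 11.44 in null control, 11.46, 11.38 and 11.43 in wild-type ethanol and 11.18, 11.55 and 11.17 in wild-type control livers. Wild-type control 2 alone overlapped the null control livers. The difference between null and wild-type on control diet was 0.24 ± 0.11 (limma adjusted p = 0.198), and without wild-type control 2 it was 0.37 with an adjusted p of 0.0227 (0.0397 with array weights). Adh7, the class IV enzyme known mainly from stomach and upper gut epithelium, lay between 6.34 and 6.66 on the 12 arrays, and its diet and genotype differences ranged from -0.04 to -0.02 with standard errors of up to 0.10. Of the 9 stomach and upper gut epithelium markers, 6 were tested, and Muc5ac, Krt13 and Krt4 were below the brightness line on all arrays. The log2 of the list's summed intensity was 8.89 to 9.04 in null ethanol, 8.78 to 8.88 in null control, 8.76 to 8.91 in wild-type ethanol and 8.84 to 8.97 in wild-type control livers, and its part in the Adh7 values was not tested.

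Cyp2e1, the ethanol-oxidising microsomal P450, was level across the diets. Its log2 intensity was 13.95, 13.92 and 14.03 in null ethanol, 13.93, 13.95 and 13.90 in null control, 13.92, 13.89 and 13.94 in wild-type ethanol and 13.92, 13.95 and 13.94 in wild-type control livers. The groups overlapped, and the 12 arrays spanned 0.14 log2 units. Ethanol minus control diet was 0.01 ± 0.05 averaged over the genotypes (interval -0.10 to 0.12), a fold of 1.01 with an interval of 0.932 to 1.09. Cyp2e1 lay only 0.13 to 0.37 log2 units below the brightest probe set of its array. Whether the probe set was close to saturation was not tested. The 82 tested genes with a mean above 13 had a median SD within groups of 0.071, against 0.144 over all tested genes, and 2.44% of them, against 7.0% of all, passed for genotype averaged over diets.

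Cat encodes peroxisomal catalase, which removes hydrogen peroxide and can oxidise ethanol with it. It lay at 13.54, 13.56 and 13.60 in null ethanol, 13.53, 13.55 and 13.56 in null control, 13.54, 13.55 and 13.53 in wild-type ethanol and 13.52, 13.54 and 13.51 in wild-type control livers, a span of 0.09. Its pooled SD within groups was 0.021, and ethanol minus control diet was 0.02 ± 0.05 averaged over genotypes (interval -0.09 to 0.13). Like Cyp2e1, its values were near the top of the array's range, 0.54 to 0.76 below the brightest probe set.

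Aldh1b1, a mitochondrial aldehyde dehydrogenase that can oxidise acetaldehyde, was lower on ethanol in null and in wild-type livers. Its log2 intensity was 7.14, 7.16 and 7.38 in the null ethanol livers, against 8.03, 7.41 and 7.47 in the null control livers. It was 7.49, 7.11 and 7.61 in the wild-type ethanol livers, against 7.90, 7.83 and 7.70 in the wild-type control livers. In each genotype every ethanol liver lay below every control liver, a pattern that 155 of the 14031 tested genes showed (1.1%). No other enzyme gene did so. The difference was -0.41 ± 0.16 in null mice (limma adjusted p = 0.361) and -0.41 ± 0.16 in wild-type mice (limma adjusted p = 0.277). With 1 array left out the difference ran from -0.53 to -0.22 in null mice and from -0.51 to -0.26 in wild-type mice. Averaged over genotypes it was -0.41 ± 0.12 (interval -0.66 to -0.16), which is 1.33-fold lower, with a limma adjusted p of 0.237, and it passed under none of the alternatives. The ethanol differences of the genotypes differed by -0.00 with an interval of -0.50 to 0.50, which does not exclude a difference between them as large as the effect itself.

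Aldh2, the mitochondrial enzyme that carries most acetaldehyde oxidation, lay between 13.16 and 13.30 on the 12 arrays. Ethanol minus control diet was 0.02 ± 0.07 in null mice and -0.03 ± 0.07 in wild-type mice. Aldh1a1, a cytosolic enzyme that oxidises retinaldehyde as well as acetaldehyde, was more variable, with 13.06, 13.11 and 12.46 in null ethanol, 13.24, 12.84 and 12.84 in null control, 13.03, 12.82 and 12.98 in wild-type ethanol and 13.13, 13.03 and 13.15 in wild-type control livers. The low value of null ethanol 3 stands apart from the others, and ethanol minus control diet averaged -0.13 ± 0.11 (interval -0.37 to 0.12). Aldh3a2, the microsomal fatty aldehyde dehydrogenase, ranged from 11.68 to 11.96, and its ethanol difference was 0.07 ± 0.07 averaged over genotypes (interval -0.08 to 0.22).

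**Figure D2:**
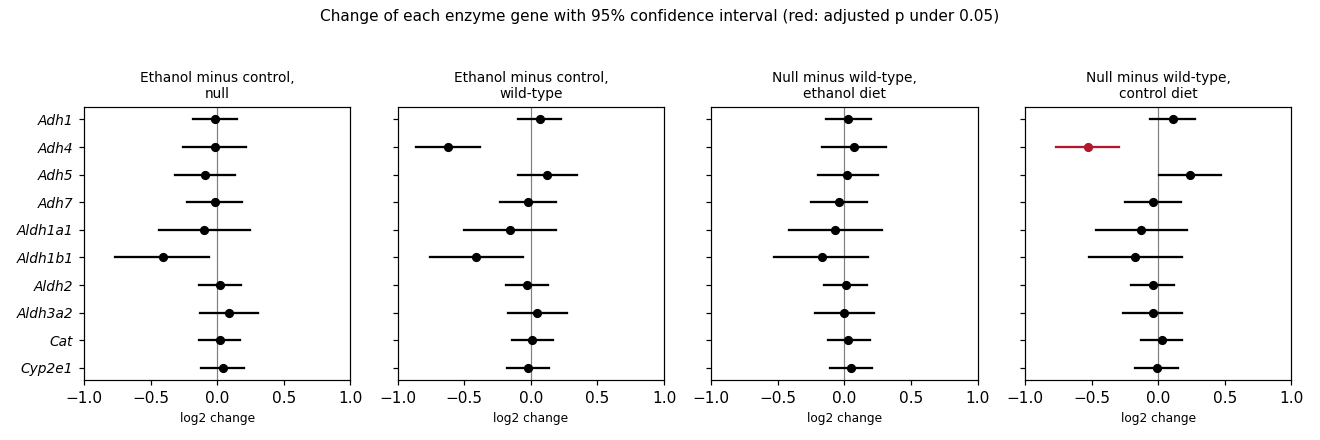
Log2 change of each enzyme gene with its 95% confidence interval from limma for 4 comparisons, ethanol minus control diet in null and in wild-type mice and null minus wild-type on ethanol and on control diet; red marks an adjusted p under 0.05. Adh4 in null against wild-type livers on control diet (-0.53) is the only red point, and Aldh1b1 has the same change of -0.41 on ethanol in both genotypes.

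Over the whole group, the median ethanol difference of the 10 genes was -0.02 in null mice and -0.02 in wild-type mice, beside -0.046 and -0.005 over all tested genes. In null mice 1 of the 10 (Aldh1b1) had ethanol livers all below control livers, against 13.0% of tested genes. In wild-type mice 3 of the 10 (Adh4, Aldh1a1 and Aldh1b1) did, against 8.61% of tested genes. For Aldh1a1 the gap was below the printed precision, with 13.03 as both the highest ethanol and the lowest control value. With ethanol 0 of the 10 passed in limma, in null mice, in wild-type mice or averaged, where 0.00713%, 0.0927% and 0.0143% of all genes passed. At an unadjusted p under 0.05 there were 1 member in null mice, 2 in wild-type mice and 2 averaged, against 12.2%, 14.5% and 12.1% of all tested genes.

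A second probe set annotated to the same gene existed for Adh1, Aldh2 and Aldh3a2, and it did not always follow the first. For Aldh2 the dimmer probe set had 9.33 ± 0.20 in null ethanol and 8.73 ± 0.06 in null control livers, and 9.27 ± 0.24 in wild-type ethanol and 9.26 ± 0.23 in wild-type control livers (SD, n = 3 each). Its ethanol difference in null mice was 0.60 ± 0.14 (limma adjusted p = 0.235) and its genotype difference on control diet was -0.52 ± 0.14 (limma adjusted p = 0.0543), while the brighter probe set gave 0.02 and -0.04. For Aldh3a2 the dimmer probe set was 0.35 ± 0.09 higher on ethanol averaged over genotypes (limma adjusted p = 0.211), against 0.07 for the brighter one. Over the 12 arrays the paired probe sets correlated with r = 0.30 for Aldh2, 0.57 for Aldh3a2 and 0.27 for Adh1, whose second probe set was below the brightness line. The sources used here do not give the transcripts that these probe sets cover.

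The genes whose log2 values over the 12 arrays followed Adh4 most closely were Eif4e, the cap-binding translation initiation factor (Pearson r = 0.96), the transcriptional regulator Mier1 (0.96) and the cohesin subunit Rad21 (0.95). The 12 arrays share the 4 groups, and choosing genes by their likeness to Adh4 fixes their pattern in the same arrays, so these are descriptions with no test. For null against wild-type livers on control diet Mier1, Eif4e and Rad21 had changes of -0.46, -0.29 and -0.20. Eif4e also lies close to Adh4 on chromosome 3, where the annotation lists 14 genes from Adh7 to Eif4e, alcohol dehydrogenase genes among them, of which 7 were named and tested. This stretch was chosen after the values were seen. In 3 of the 7, Adh4, Metap1 (a methionine aminopeptidase) and Eif4e, the wild-type control livers lay above all 9 others, as in 2.29% of all tested genes. Adh4 was the starting gene and Eif4e was picked for its likeness to Adh4. Their pattern was therefore given by the choice, and the count is no result about the stretch. Metap1 differed by -0.34 ± 0.10 on ethanol in wild-type mice and Eif4e by -0.37 ± 0.09. Adh1, Adh5 and Adh7, which lie in the same stretch, did not show the pattern.

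**Figure D3:**
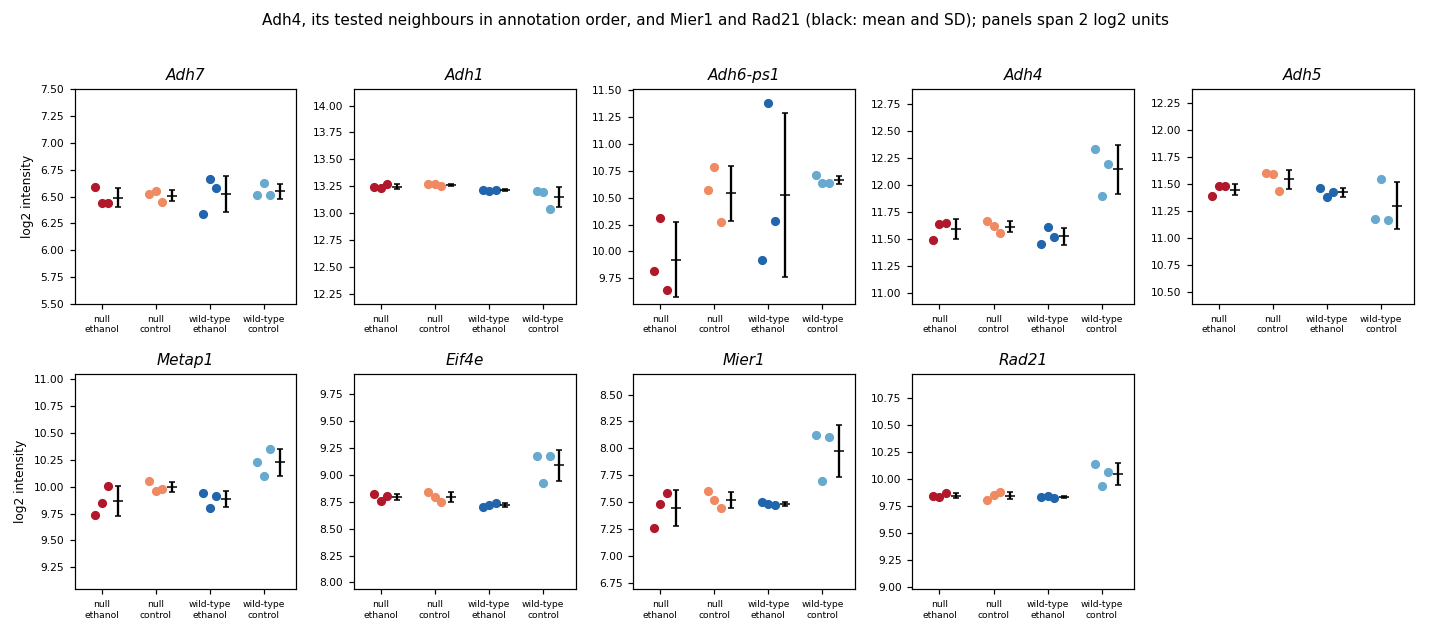
Log2 intensity on each array (points; 3 per group) with mean and SD for Adh4, the 6 other tested genes from Adh7 to Eif4e in annotation order, and Mier1 and Rad21; every panel spans 2 log2 units. In Adh4, Metap1, Eif4e, Mier1 and Rad21 the wild-type control livers lie above the other groups, and in Adh7, Adh1, Adh6-ps1 and Adh5 they do not.

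The closest genes to Aldh1b1 were Nqo2, Lrtm1 and Rmdn2 (r = 0.90 each). For Cyp2e1 they were Snrnp48 (0.88), Vsig10 (0.87) and Zfp41 (0.85), over a Cyp2e1 span of 0.14 log2 units. For the remaining members the highest r was 0.94 for Adh1 with Mospd3 and for Adh5 with Bgn, 0.92 for Cat with Cyp4f13, 0.89 for Aldh1a1 with Mtif2, 0.87 for Aldh2 with Tmem260 and for Aldh3a2 with Ankrd13a, and 0.86 for Adh7 with Onecut1.

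Around the enzymes, 10 lists with 155 genes of the same and neighbouring pathways were read, of which 130 were tested. With ethanol 0 of the 130 passed in limma in null mice, in wild-type mice, averaged or in the interaction. Of all 14031 tested genes 1, 13, 2 and 2 passed in these comparisons. At an unadjusted p under 0.05 there were 16, 15, 18 and 14 of the 130. Over all 14031 tested genes there were 1709, 2035, 1702 and 2110 at that level. The smallest limma adjusted p on ethanol was 0.0947, for Cyp2b10, a P450 known as a target of the receptor CAR. For genotype averaged over diets 4 passed as higher and 8 as lower in null livers. This share (9.23% of 130) was near that of all tested genes (7.0%, with 3.01% higher and 3.98% lower). The macrophage markers given above moved in the same comparison.

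Among the 12 NADH shuttle genes 2 passed for genotype. Got1, the cytosolic aspartate aminotransferase of the malate-aspartate shuttle, had log2 intensities of 10.97, 10.47 and 11.04 in null ethanol and 12.08, 12.14 and 12.17 in wild-type ethanol livers, and 11.81, 11.50 and 11.38 in null control and 12.18, 12.40 and 12.08 in wild-type control livers. The null livers lay below the wild-type livers on each diet, and Got1 fell by 0.98 (SE 0.11) averaged over diets, with a limma adjusted p of 0.000119. Gpd2, the mitochondrial glycerol-3-phosphate dehydrogenase of the other shuttle, rose by 0.40 ± 0.09 (limma adjusted p = 0.014), with 9.38 to 9.62 in null ethanol and 9.0 to 9.36 in wild-type ethanol, and 9.68 to 10.05 in null control and 9.23 to 9.38 in wild-type control livers. The shuttle genes as a list had a median genotype change of 0.04, beside -0.00 over all tested genes. Both calls held in the 12 fits that left out 1 array each.

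Of 8 acetate-use genes, Acly, which makes cytosolic acetyl-CoA from citrate, rose by 0.29 ± 0.08 in null livers (limma adjusted p = 0.0469), a call kept in 1 of the 12 fits that left out 1 array. Of 15 peroxide genes, mitochondrial peroxiredoxin Prdx3 fell by 0.26 (SE 0.07, limma adjusted p = 0.0345), kept in 2 of 12 fits. Of 11 genes of non-oxidative ethanol handling, the phospholipase D gene Pld1, whose enzyme family can form phosphatidylethanol, fell by 0.65 (SE 0.09, limma adjusted p = 0.000943, kept in all 12), and the glucuronosyltransferase Ugt2b5 fell by 0.26 (SE 0.07, limma adjusted p = 0.0485, kept in 2 of 12). None of 11 other alcohol and retinol dehydrogenases, 12 other aldehyde dehydrogenases and 11 microsomal partners and P450s passed for genotype; nearest were Hsd17b11 at 0.23 ± 0.10 and Rdh5 at 0.29 ± 0.13, Aldh5a1 at 0.16 ± 0.07 and Aldh1a7 at 0.14 ± 0.10, and Cyp3a13 at -0.28 ± 0.11 and Cyp3a11 at 0.36 ± 0.15, with limma adjusted p-values of at least 0.159.

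Among genes of the liver lobule's zones, in which Cyp2e1 is known as pericentral, 1 of 17 pericentral genes passed for genotype: Oat, ornithine aminotransferase, fell by 0.49 (SE 0.10, limma adjusted p = 0.0104). Of 15 periportal genes, Hal (histidine ammonia-lyase) fell by 0.72 (SE 0.06, limma adjusted p = 1.62e-05), Ctsc (cathepsin C) fell by 0.48 (SE 0.09, limma adjusted p = 0.00549) and Cdh1 (E-cadherin) fell by 1.0 (SE 0.24, limma adjusted p = 0.022), while Apoa4, an apolipoprotein, rose by 0.65 ± 0.18 (limma adjusted p = 0.0432). The Oat, Hal and Ctsc calls were kept in all 12 fits that left out 1 array, the Cdh1 call in 9 and the Apoa4 call in 4. Of 19 transcription factors known for Adh, Cyp2e1 or Cat genes, the clock-controlled factor Hlf rose by 0.46 ± 0.11 (limma adjusted p = 0.0305, kept in 4 of 12 fits). On the ethanol diet alone 0 of the 130 list genes passed as higher and 4 as lower in null livers (Got1, Pld1, Hal and Cdh1). This is 3.08%, against 1.79% of all tested genes, with 0.456% higher and 1.33% lower. On the control diet alone 3 passed as higher (Acly, Gpd2 and Ass1, an enzyme of the urea cycle) and 5 as lower (Got1, Prdx3, Pld1, Hal and Ctsc). This is 6.15%, against 5.1% of all tested genes. Ass1 was named after its values were seen.

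**Figure D4:**
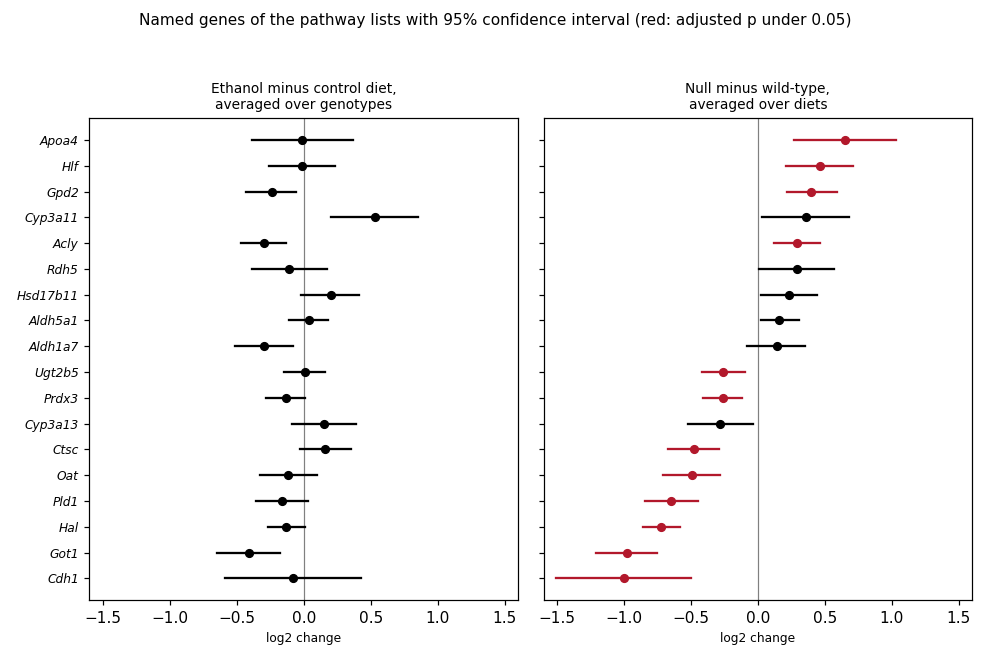
Log2 change with 95% confidence interval of the 18 named genes of the pathway lists, ethanol minus control diet averaged over genotypes (left) and null minus wild-type averaged over diets (right); red marks an adjusted p under 0.05. Red points appear only on the right, from Cdh1 (-1.0) and Got1 (-0.98) to Apoa4 (0.65).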

How the data were processed

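The authors deposited 1 intensity per probe set and array on the linear scale, which the submitters' processing notes say was made with RMA; which software ran it and the genome build behind the annotation are unknown from the sources at hand. Total RNA (100 ng) was amplified and labelled with Ambion and Affymetrix kits, per the labels' protocols. Log2 was taken here. Of 41345 probe sets, 23521 named exactly 1 gene; the brightest probe set per gene gave 22180 genes. A gene was tested if it lay above the 40th percentile of its array (log2 5.61 to 5.71, the brightness line) on at least 3 arrays. A dim gene is not an absent one, and levels were not compared between probe sets.

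A linear model with 4 group means, over 12 arrays, was fitted in limma 3.58.1 in R 4.3.3 (lmFit, contrasts.fit, eBayes) in 7 contrasts, with Benjamini-Hochberg adjustment over the 14031 genes and a threshold of 0.05. The number of arrays limits the precision. Named are all members, the 3 genes most like each member, Ppard, and of each list the members called with ethanol or in the interaction and up to 4 called for genotype averaged over diets (2 where none was called). The members, lists and rule were chosen with earlier results of these data known. The fit was tested on simulated data. Alternatives were another filter, trend and robust fits, quantile normalisation, array weights, a replicate block, fewer arrays and probe sets as the unit. Same-numbered arrays shared only a number. Probe sets naming several genes or none were left out.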

Additional observations from a re-analysis of the deposited data

How the results depend on the processing

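Of 1517 values of the 10 enzyme genes under the alternatives, over 70 gene and comparison pairs, 1500 kept their side of the threshold. Of the rest, 12 newly passed and 5 no longer passed. Changes near 0 that did not pass could switch sign. The ethanol difference of Adh7 in wild-type mice ran from -0.09 to 0.07, and that of Aldh1a1 in null mice from -0.21 to 0.11. Counts over all tested genes moved more. For ethanol in null mice 1 gene passed, against 0 with no filter, 9 with array weights, 0 with only the 6 arrays compared and 0 to 3 when 1 array was left out. For ethanol in wild-type mice 13 genes passed, against 7 with no filter, 23 with the stricter filter, 24 with trend and robust fits, 832 with array weights, 64 over probe sets and 0 to 810 when 1 array was left out, the 810 without wild-type control 2; the enzyme genes passed were 0, against 1 (Adh4) with the stricter filter, trend and robust fits, array weights or probe sets as the unit and 0 to 1 when 1 array was left out. For null against wild-type on ethanol diet 251 genes passed, against 829 with array weights and 108 to 319 when 1 array was left out. For null against wild-type on control diet 715 genes passed, against 393 with no filter, 1631 with array weights, 226 with only the 6 arrays compared and 192 to 1304 when 1 array was left out (1304 without wild-type control 2); the enzyme genes passed were 1, against 2 (Adh4 and Adh5) with array weights, 0 with only the 6 arrays and 0 to 2 when 1 array was left out. In the interaction 2 genes passed, against 1 with no filter, 0 with the stricter filter, 38 with array weights, 0 over probe sets and 0 to 84 when 1 array was left out (84 without wild-type control 2), with 0 to 1 enzyme genes. For ethanol averaged over genotypes 2 genes passed, against 4 with trend and robust fits, 8 with quantile normalisation, 133 with array weights and 0 to 293 when 1 array was left out (293 without wild-type control 2); the enzyme genes passed were 0, against 1 (Adh4) with array weights and 0 to 1. For genotype averaged over diets 982 genes passed, against 1863 with array weights and 621 to 1314 when 1 array was left out; the enzyme genes passed were 0, against 1 with array weights and 0 to 1. The cause of these moves was not tested.

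Same-numbered arrays did not deviate together (18 pairs with r from -0.146 to 0.191, 2 of 12 arrays closest to their own number), so the numbers were taken as names. With the replicate block the genes passed were 0 for ethanol in null mice, 9 in wild-type mice and 0 averaged, 229 and 613 for genotype on ethanol and on control diet, 884 averaged and 2 in the interaction; Adh4 in null against wild-type livers on control diet was -0.53 with a limma adjusted p of 0.0346. With 3 arrays a group, the interval of an enzyme gene's change reached at least 0.17 log2 units from 0 for a pair of groups. Part of this width came from the spread that limma shares over all tested genes. Cat, with a pooled SD within groups of 0.021, had a limma standard error of 0.07 for ethanol in wild-type mice.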
